A study of Mus musculus with 7 samples.

Results

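The Hox genes are the homeobox genes that lie side by side in the clusters Hoxa, Hoxb, Hoxc and Hoxd, and they were followed here in hematopoietic stem cells (HSCs) that had lost Cebpa. Members were taken by name, as probe sets annotated to a single gene called Hoxa, Hoxb, Hoxc or Hoxd with a number. The rule gave 37 genes, among 19938 genes in all, namely 10 in Hoxa and 9 in each of Hoxb, Hoxc and Hoxd. Each had 1 probe set. Hoxb8 shared a probe set with Hoxb7, and that probe set was left out for this reason.

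HSCs of female C57BL/6 mice were sorted from bone marrow as lineage-negative, Sca1+, c-Kit+, CD150+ and CD48- cells and measured on Affymetrix Mouse Gene ST arrays, 1 array per sample. In the 3 Cebpa fl/fl mice loxP sites flanked both Cebpa alleles and no Cre was present, and the 4 Cebpa Δ/Δ mice carried the same alleles with the Mx1Cre transgene. All mice received pIpC, an inducer of interferon, and were analysed at day 18. The labels give no age. Mx1 responds to interferon in many cell types, so deletion is not limited to HSCs, and because the controls lack Cre, effects of Cre itself cannot be told apart from those of the deletion. The comparison asks whether the Hox genes differ in HSCs once C/EBPα, a transcription factor of the myeloid lineage, is gone.

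Hox proteins are transcription factors that bind DNA together with cofactors of the TALE class, the Meis, Pbx and Pknox proteins. In the embryo the genes of a cluster are switched on in their order along the chromosome, and low numbers mark the anterior end. In blood, genes of the Hoxa and Hoxb clusters are known for their activity in stem and progenitor cells, and HOXA9 with MEIS1 for its part in leukemia. MLL (Kmt2a) and Cdx proteins are known to keep Hox genes on, and Polycomb complexes to keep them off.

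The clusters also hold microRNA genes, whose mature sequences are shown because they form families with members in several clusters. They are credited to RefSeq (GRCm38.p6), and capitals mark the seed, bases 2 to 8, which pairs with target RNAs.
mmu-miR-10a-5p: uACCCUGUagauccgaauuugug
mmu-miR-10b-5p: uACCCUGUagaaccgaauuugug
mmu-miR-196a-5p: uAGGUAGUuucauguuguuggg
mmu-miR-196b-5p: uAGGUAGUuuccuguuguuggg
miR-10a-5p lies within Hoxb (chr11:96317186-96317208, plus strand) and miR-10b-5p within Hoxd (chr2:74726074-74726096, plus strand), and both share the seed ACCCUGU. miR-196a-5p comes from Hoxb (chr11:96265187-96265208, plus strand) and from Hoxc (chr15:102973365-102973386, plus strand), and miR-196b-5p from Hoxa (chr6:52230129-52230150, minus strand), all with the seed AGGUAGU.

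No Hox gene differed between genotypes at the thresholds of the study, an unadjusted p under 0.05 with a change over 1.5-fold. Of the 37 genes 0 were higher and 0 lower without Cebpa, while 1.57% of all genes were higher and 0.617% lower. In limma 0 Hox genes passed an adjusted p of 0.05, as did 0% of all genes, and the smallest adjusted p was 0.494 among the Hox genes and 0.207 among all genes. At an unadjusted p under 0.05 alone, 1 Hox gene, Hoxb4, was lower and 0 were higher, against 3.08% and 4.4% of all genes. Values of the genotypes were apart without overlap for the same single gene, Hoxb4, which was lower, and for 0 higher genes, against 2.46% and 3.51% of all genes. These shares of the Hox genes are close to the background.

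The bound that the arrays set on any change was narrow for most members. The 95% interval of the fit lay within a 1.5-fold change in either direction for 29 of 37 Hox genes. These were all 23 genes whose mean lay below the median gene level, a log2 intensity of 5.86, and 6 of the 14 above it. A probe set near background compresses a true change, so a narrow interval of a dim gene does not show that its RNA stayed the same. The 8 Hox genes outside the bound were all among the brighter ones. One of them, Hoxb4, had a narrow interval that was shifted to lower values. The arrays varied more in the brighter genes. The median SD over the 3 Cebpa fl/fl arrays was 0.30 for brighter and 0.08 for dimmer Hox genes. Among all genes it was 0.18 for brighter and 0.10 for dimmer ones. Over the 4 Cebpa Δ/Δ arrays the brighter Hox genes did not vary more than other brighter genes. There the median SD was 0.185 for brighter and 0.077 for dimmer Hox genes, against 0.183 and 0.096 among all genes.

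The 14 brighter Hox genes were Hoxa2 to Hoxa7, Hoxa9 and Hoxa10, and Hoxb1 to Hoxb6. All 18 genes of Hoxc and Hoxd were dimmer, as were Hoxa11, Hoxa13, Hoxb7, Hoxb9 and Hoxb13. Probe sets differ in affinity, so this split describes signal on the array and not the relative abundance of the transcripts. Among the dimmer genes 16 of 23 (69.6%) had exactly the same value on 3 or more arrays, and among all dimmer genes 59.2% did. Among all brighter genes the share was 19.7%, and among brighter Hox genes 14.3%.

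By cluster, the log2 fold changes (Cebpa Δ/Δ over fl/fl) leaned to lower values in Hoxa and Hoxb and not in Hoxc and Hoxd. In Hoxa 9 of 10 were negative with a median of -0.18, and in Hoxb 7 of 9 with a median of -0.10. In Hoxc 5 of 9 were negative (median -0.02) and in Hoxd 4 of 9 (median 0.01). Over all 37 Hox genes 25 were negative (67.6%) and the median was -0.06, whereas 50% of all genes were negative, at a median of 0.00. By position, the median was -0.14 for the 7 anterior genes (numbers 1 to 3), -0.15 for the 14 central genes (4 to 8) and -0.01 for the 16 posterior genes (9 to 13). The brighter genes are spread unequally over these parts. Of the 14 brighter genes 13 were negative with a median of -0.18, and of the 23 dimmer ones 12 were negative with a median of -0.01. Over all brighter genes 50.8% were negative. All members were read from the same 7 RNA samples, so they are not independent of each other and the counts carry no test. The direction also leaned on single arrays. Without Cebpa Δ/Δ 3, 11 of the 14 brighter genes were negative at a median of -0.12, and without Cebpa fl/fl 3, 11 were at a median of -0.09. Without Cebpa fl/fl 1 the median was -0.30 with 12 negative.

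**Figure D1:**
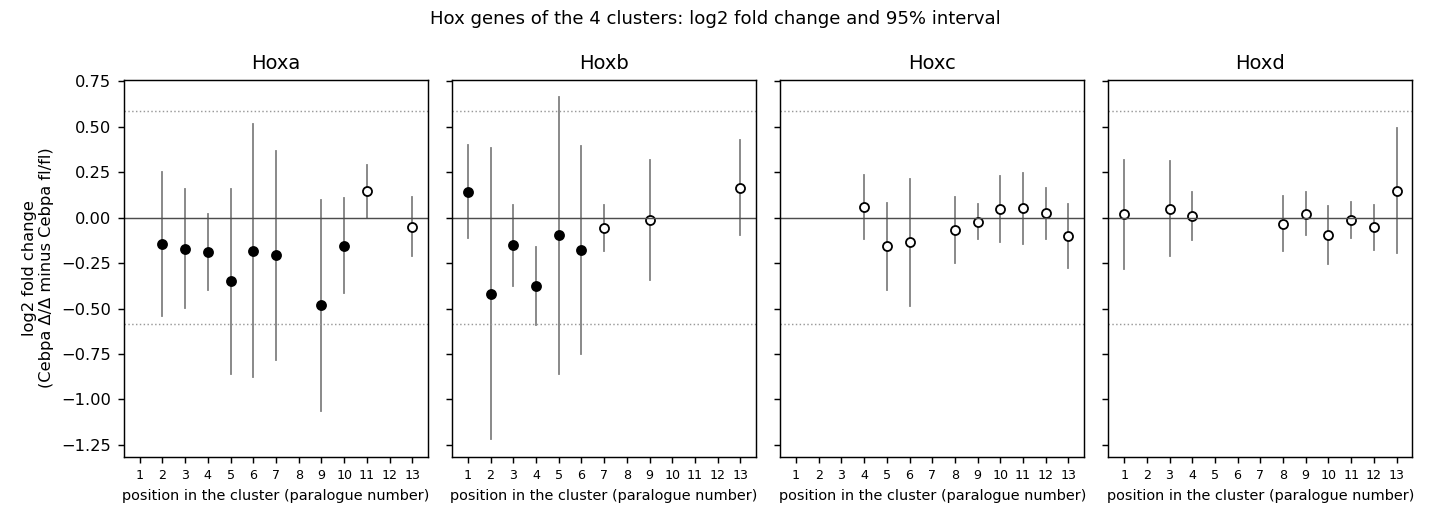
Log2 fold change (vertical axis, Cebpa Δ/Δ minus Cebpa fl/fl, 4 and 3 arrays) of the 37 measured Hox genes by number within each cluster (horizontal axis). Points are limma estimates, filled for the 14 genes above the median gene level, bars are 95% intervals, and dotted lines mark 1.5-fold. Only the interval of Hoxb4 leaves out 0, from -0.59 to -0.16, and it crosses the 1.5-fold line.

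Hoxb4, known for expanding HSCs when it is overexpressed, was the member with the clearest separation. Its log2 intensities were 7.71, 7.47 and 7.56 on the 3 Cebpa fl/fl arrays and 7.21, 7.37, 7.17 and 7.07 on the Cebpa Δ/Δ arrays, in order of replicate number. Every Cebpa Δ/Δ array lay below every Cebpa fl/fl array, with a gap of 0.106 between the nearest arrays. The means were 7.58 ± 0.12 (SD, n = 3) and 7.20 ± 0.12 (SD, n = 4), a log2 fold change of -0.38 (SE 0.09), or 77.1% of the Cebpa fl/fl level. Its limma p was 0.00466 and its adjusted p = 0.494, so it did not pass over all genes. The exact two-sided permutation p was 0.0571, where the smallest that 7 arrays can give is 0.0286. Over 19 alternatives the log2 fold change of Hoxb4 ranged from -0.43 to -0.30, with limma p from 0.00232 to 0.0437.

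Promoter sequences were on hand for 21 of the 37 measured genes, and the 250 bases upstream of the start are shown for Hoxb4 as the single gene without overlap, for Hoxa9 as the gene with the lowest log2 fold change, and for Hoxd11 as a gene that holds a C/EBP motif. The motif searched was TTGCNNAA on one strand and TTNNGCAA on the other, with capitals marking a match (RefSeq, GRCm38.p6).
Hoxb4, chr11:96318017-96318266, plus strand: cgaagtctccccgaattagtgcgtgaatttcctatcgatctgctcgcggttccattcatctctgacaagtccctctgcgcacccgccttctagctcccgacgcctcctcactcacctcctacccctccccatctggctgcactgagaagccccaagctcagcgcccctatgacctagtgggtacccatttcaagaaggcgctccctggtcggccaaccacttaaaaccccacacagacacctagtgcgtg
Hoxa9, chr6:52227371-52227620, minus strand: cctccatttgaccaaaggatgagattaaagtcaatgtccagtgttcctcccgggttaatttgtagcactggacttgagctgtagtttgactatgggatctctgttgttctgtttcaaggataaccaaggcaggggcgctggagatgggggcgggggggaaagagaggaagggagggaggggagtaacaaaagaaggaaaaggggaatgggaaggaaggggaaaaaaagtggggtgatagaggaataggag
Hoxd11, chr2:74679308-74679557, plus strand: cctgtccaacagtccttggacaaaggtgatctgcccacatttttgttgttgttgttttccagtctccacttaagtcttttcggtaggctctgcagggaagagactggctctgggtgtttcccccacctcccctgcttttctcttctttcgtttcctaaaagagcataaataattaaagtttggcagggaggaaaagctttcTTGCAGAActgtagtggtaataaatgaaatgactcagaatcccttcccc
Neither Hoxb4 nor Hoxa9 held these letters in this window. Among the 21 genes Hoxd11 and Hoxd12 held 1 match each, in Hoxd11 starting 49 bases before the gene start, and 9.56% of all 32851 promoter windows of this length held one. Both genes were dim. Hoxd11 measured between 4.99 and 5.05 on all 7 arrays, with a log2 fold change of -0.01 (SE 0.04), and Hoxd12 had one of -0.05 (SE 0.05). Of the 2 starts listed for Hoxd11 only the one shown had a match.

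Hoxa9, whose product drives progenitor growth together with MEIS1, had the lowest log2 fold change of all 37 genes but overlapping arrays. It measured 8.12, 8.17 and 8.71 on the 3 Cebpa fl/fl arrays and 7.61, 8.17, 7.46 and 8.18 on the Cebpa Δ/Δ arrays, in order of replicate number. Cebpa Δ/Δ 1 and 3 lay below all controls, while Cebpa Δ/Δ 2 and 4 equalled or passed the lower pair of them. The log2 fold change was -0.48 (SE 0.24), with limma p 0.0901 and an exact two-sided permutation p of 0.286. Without Cebpa fl/fl 3 it was -0.29, and over the fits without 1 array it ranged from -0.59 to -0.29.

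Hoxa5 spread widely among the Cebpa Δ/Δ arrays. It measured 7.85, 7.80 and 7.91 in Cebpa fl/fl HSCs, within 0.05 (SD, n = 3), and 7.35, 7.63, 7.05 and 7.98 in Cebpa Δ/Δ HSCs, with an SD of 0.40 (n = 4). Cebpa Δ/Δ 1, 2 and 3 lay below all controls, Cebpa Δ/Δ 3 lowest, and Cebpa Δ/Δ 4 was the highest of all arrays. The log2 fold change was -0.35 (SE 0.21) with limma p 0.145 and an exact permutation p of 0.229. Without Cebpa Δ/Δ 4 it was -0.51 with limma p 0.0193, and without Cebpa Δ/Δ 3 it was -0.20.

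Hoxa6 and Hoxa7, the neighbours between them, followed their highest and lowest arrays. Hoxa6 measured 7.20, 7.56 and 8.29 in Cebpa fl/fl and 7.56, 7.53, 7.07 and 7.83 in Cebpa Δ/Δ HSCs, a log2 fold change of -0.18 (SE 0.29, limma p 0.552, exact permutation p of 0.571). Without Cebpa fl/fl 3 it turned to 0.12. Hoxa7 measured 7.46, 7.54 and 8.08 in Cebpa fl/fl and 7.44, 7.54, 7.05 and 7.93 in Cebpa Δ/Δ HSCs, a log2 fold change of -0.21 (SE 0.24, limma p 0.417, exact permutation p of 0.371), which was -0.01 without Cebpa fl/fl 3. In both genes Cebpa fl/fl 3 was the highest and Cebpa Δ/Δ 3 the lowest array.

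Hoxb5, which is used to mark long-term HSCs in the mouse, did not differ beyond the spread. It measured 6.93, 7.35 and 7.62 in Cebpa fl/fl and 6.96, 7.41, 6.60 and 7.84 in Cebpa Δ/Δ HSCs. The Cebpa Δ/Δ arrays held both the highest and the lowest value. Its log2 fold change of -0.10 (SE 0.32, limma p 0.768, exact permutation p of 0.8) turned to 0.06 without Cebpa fl/fl 3 and to 0.10 without Cebpa Δ/Δ 3.

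Other members had values that rested on 1 array or came near the threshold. Hoxb2 measured 7.32 in Cebpa fl/fl 1 and between 5.90 and 6.06 on the other 6 arrays. Its log2 fold change of -0.42 (SE 0.33) became 0.03 without that array. Hoxb6 measured 6.55 in Cebpa Δ/Δ 3 and between 6.98 and 7.59 elsewhere, and its log2 fold change of -0.18 (SE 0.24) became 0.01 without it. Hoxb1 was the single brighter gene with a positive log2 fold change, 0.14 (SE 0.11), with Cebpa Δ/Δ 3 at 6.50 and the other arrays between 6.01 and 6.13. Hoxa4 measured 7.15, 7.06 and 7.36 against 6.94, 6.99, 6.94 and 7.12, a log2 fold change of -0.19 (SE 0.09, limma p 0.069), and only Cebpa Δ/Δ 4 reached into the range of the controls. Hoxa11, a posterior and dim gene, had one of 0.14 (SE 0.06, limma p 0.0509). Its limma p fell below 0.05 under 5 of its 18 alternatives, for example to 0.00988 without Cebpa fl/fl 2. The remaining brighter genes Hoxa2, Hoxa3, Hoxa10 and Hoxb3 had log2 fold changes between -0.17 and -0.14, which moved with single arrays. Without Cebpa fl/fl 3 Hoxa3 was at -0.0082, Hoxb3 at -0.07, Hoxa2 at -0.06 and Hoxa4 at -0.11. Without Cebpa fl/fl 1 Hoxa10 was at -0.05, Hoxa2 at -0.32 and Hoxa3 at -0.30. Without Cebpa fl/fl 2 Hoxa2 was at -0.05 and Hoxa10 at -0.24, and without Cebpa Δ/Δ 3 Hoxa10 was at -0.10. Without Cebpa Δ/Δ 1 Hoxa2 was at -0.08, and without Cebpa Δ/Δ 3 Hoxb1 was at 0.05. The dimmer genes lay between -0.16 (Hoxc5) and 0.17 (Hoxb13).

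**Figure D2:**
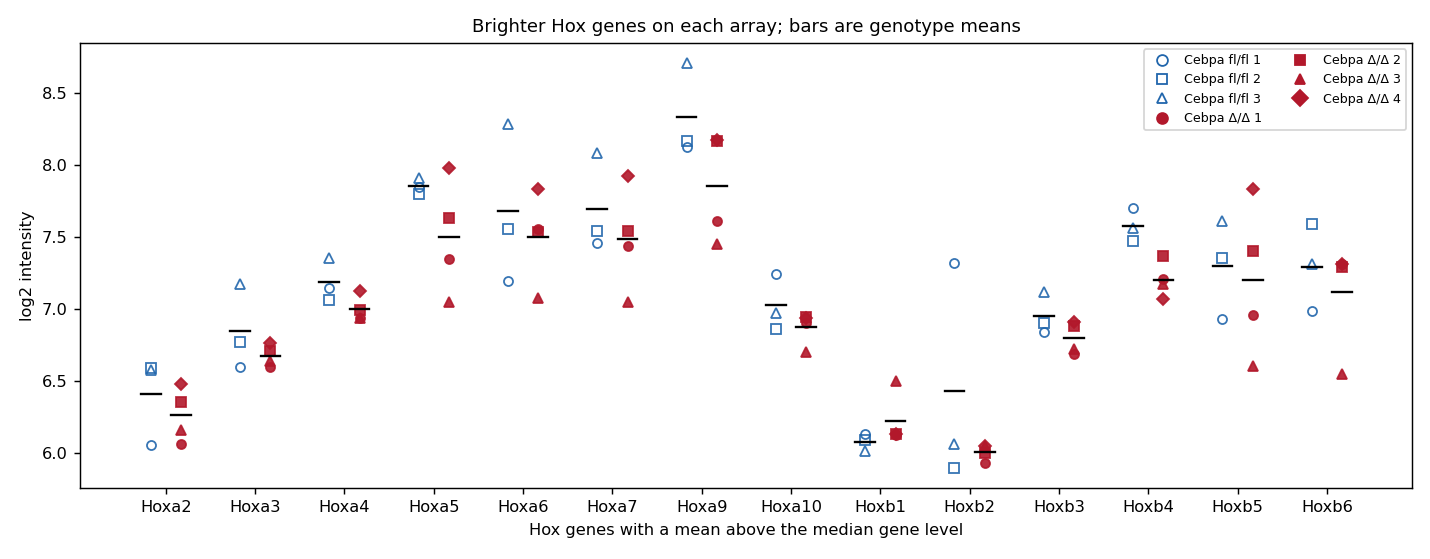
Log2 intensity (vertical axis) of the 14 Hox genes above the median gene level on each array, open blue for Cebpa fl/fl (3) and filled red for Cebpa Δ/Δ (4), with bars at the genotype means. Cebpa Δ/Δ 3 (red triangles) is the lowest array for 8 of the 14 genes, and the arrays of Hoxb4 alone do not overlap.

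The Cebpa Δ/Δ arrays differed among themselves over the brighter Hox genes. The mean deviation of these 14 genes from their 7-array means was 0.04, 0.05 and 0.27 on the 3 Cebpa fl/fl arrays and -0.16, 0.00, -0.31 and 0.11 on the 4 Cebpa Δ/Δ arrays. Cebpa Δ/Δ 3 was the lowest array for 8 of the 14 genes, and it was the lowest for 23.5% of the 9969 genes above the median level. This array was singled out after its values were seen. Cebpa Δ/Δ 3 and Cebpa fl/fl 1 also had the lowest mean correlation with all other arrays (0.979 for both, 0.982 to 0.985 for the rest).

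Markers of the sorted cell and of other lineages moved over the same arrays. For 9 HSC markers without Cd48 the mean deviations were 0.20, 0.13 and 0.21 on the Cebpa fl/fl arrays and -0.31, 0.18, -0.54 and 0.12 on the Cebpa Δ/Δ arrays, so that Cebpa Δ/Δ 1 and 3 were low in them as in the brighter Hox genes. All 9 had a lower mean without Cebpa, with log2 fold changes from -0.51 (Hlf) to -0.17 (Tek). None of the 9 reached an unadjusted p under 0.05, and only the arrays of Kit did not overlap (limma p 0.0568). Cd48, which the sort excludes, was higher (2.75, SE 0.58, limma p 0.00249, adjusted p = 0.412). All 8 erythroid markers were higher at an unadjusted p under 0.05, with mean deviations from -1.63 to -0.67 in Cebpa fl/fl and from 0.50 to 1.53 in Cebpa Δ/Δ HSCs, highest on Cebpa Δ/Δ 1 and 3. All 10 neutrophil markers were lower, from 1.11 to 2.98 against -2.05 to -0.92. Of 12 stromal and endothelial markers 3 were higher and 0 lower. These counts stand beside 4.4% of all genes higher and 3.08% lower at the same p. Array intensities have no zero, so no marker can be called absent. The part of these shifts in the Hox values was not tested, and in bulk samples fewer cells of a type and less RNA per cell cannot be told apart. Cebpa itself was lower, at 5.64 ± 0.11 (SD, n = 3) against 5.22 ± 0.08 (SD, n = 4), with no overlap between genotypes. Its log2 fold change of -0.41 (SE 0.07, limma adjusted p = 0.337) was under 1.5-fold, and its mean lay below the median gene level.

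**Figure D3:**
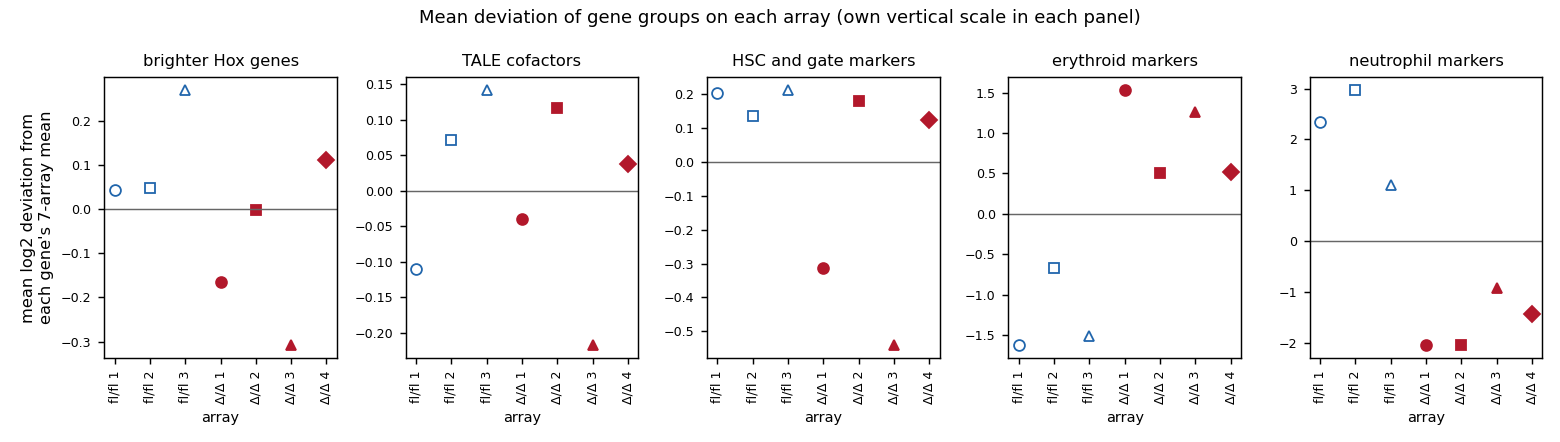
Mean log2 deviation of a gene group from each gene's mean over the 7 arrays (vertical axis, own scale in each panel) for each array (horizontal axis), open blue for Cebpa fl/fl and filled red for Cebpa Δ/Δ. The brighter Hox genes, the TALE cofactors and the HSC markers have their lowest value on Cebpa Δ/Δ 3, at -0.31, -0.22 and -0.54.

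The cofactors and regulators of Hox genes did not pass the threshold either. Of 11 TALE cofactor genes 10 were measured and 0 had an unadjusted p under 0.05, with 5 above and 5 below 0 and a median log2 fold change of -0.01. Meis1, the cofactor of HOXA9, measured 9.78, 9.97 and 9.98 in Cebpa fl/fl and 9.54, 9.89, 9.05 and 9.91 in Cebpa Δ/Δ HSCs. Its log2 fold change was -0.32 (SE 0.22), with the lowest value again on Cebpa Δ/Δ 3. Tgif1, which encodes a repressor of the class, had one of 0.11 (SE 0.19).

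All 16 genes of MLL and Cdx factors were measured, and 0 had an unadjusted p under 0.05 (8 above and 8 below 0, median -0.01). Kmt2a, the MLL methyltransferase, measured 9.68, 9.65 and 9.85 against 9.27, 9.77, 8.85 and 9.60, a log2 fold change of -0.36 (SE 0.22). Mllt3, a partner of MLL fusions and of transcription elongation, had one of 0.12 (SE 0.21). Of 18 Polycomb and related genes 17 were measured, again with 0 at an unadjusted p under 0.05, 11 above and 6 below 0 and a median of 0.02. The methyltransferase gene Ezh2 had a log2 fold change of 0.21 (SE 0.15) and Suz12, a subunit of the same complex, one of 0.41 (SE 0.19, limma p 0.0716).

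Genes reported as targets of HOXA9 and MEIS1 held more calls than these lists, in both directions. All 12 were measured. At an unadjusted p under 0.05, 4 were higher, 3 of them at the thresholds of the study, and 1 was lower, while 0 passed over all genes. Among all genes 4.4% were higher and 3.08% lower at that p, and 1.57% were higher at the thresholds of the study. All 12 lay above the median gene level. Trib2, a Tribbles pseudokinase gene known to promote the breakdown of C/EBPα, measured 5.47, 5.92 and 6.14 in Cebpa fl/fl and 7.13, 6.61, 6.64 and 6.67 in Cebpa Δ/Δ HSCs, without overlap (log2 fold change 0.92, SE 0.20, limma p 0.00278). Id2, an inhibitor of E proteins, had a log2 fold change of 1.47 (SE 0.43, limma p 0.0123), the cytokine receptor gene Flt3 one of 0.69 (SE 0.23, limma p 0.0205) and the cell cycle kinase gene Cdk6 one of 0.46 (SE 0.15, limma p 0.0192). The transcription factor gene Erg was lower, at 10.09, 10.19 and 10.26 against 9.63, 10.02, 9.40 and 10.002 (-0.42, SE 0.17, limma p 0.0427). Arrays of the genotypes did not overlap for 4 higher genes (Trib2, Id2, Flt3 and Cdk6) and 3 lower ones (Erg, Igf1r and Lmo2). Among all genes 3.51% were higher and 2.46% lower without overlap, and of the 9969 above the median level 487 were higher and 353 lower. The median of the list was -0.06. These genes answer to many other factors, and no link to the Hox values was tested.

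Genes lying within and beside the clusters gave no calls. Of 10 measured non-Hox genes inside the clusters and 24 beside them, 3 on each side of a cluster, 0 had an unadjusted p under 0.05, with medians of -0.09 and 0.01. The antisense gene Hoxaas2 in Hoxa had arrays that did not overlap, 5.79, 5.76 and 5.95 against 5.72, 5.56, 5.76 and 5.76, with a gap of 0.0009 between the nearest arrays and a log2 fold change of -0.13 (SE 0.07). The methods do not say whether strand was kept, so its signal and that of the Hox genes it overlaps may not be separate.

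The microRNA genes whose seeds are shown above had probe sets named for them, which do not tell the mature microRNA from its precursor. The methods do not say whether small RNAs were kept during purification and amplification. The values are therefore signal of these probe sets and not levels of mature microRNAs. The miR-196 genes did not move together. Mir196a-1 in Hoxb had a log2 fold change of -0.17 (SE 0.07, limma p 0.0525), Mir196a-2 in Hoxc one of 0.22 (SE 0.11, limma p 0.0822) and Mir196b in Hoxa one of -0.05 (SE 0.08). The first 2 were dim, with no array above 4.25, and Mir196b lay between 6.47 and 6.71 on all arrays. Of the miR-10 genes Mir10a measured 5.63 in Cebpa fl/fl 3 and between 2.97 and 3.58 on the other 6 arrays, and Mir10b lay between 1.56 and 1.97. Hoxb4, next to Mir10a in Hoxb, did not stand apart on Cebpa fl/fl 3. It measured 7.56 there, between Cebpa fl/fl 2 (7.47) and Cebpa fl/fl 1 (7.71).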

How the data were processed

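RNA of sorted HSCs was amplified, labelled and measured on Affymetrix Mouse Gene 1.0 ST arrays (3 Cebpa fl/fl, 4 Cebpa Δ/Δ). The authors normalized all arrays together with RMA in Partek Genomics Suite (RMA and affy in the submitters' processing notes), so changes of total RNA per cell are hidden. The deposited intensity values are linear, from 1.51 to 9840. Array medians lay between 46.2 and 50.4, and the number of arrays limits the precision. log2 was taken without a pseudocount, where log2 values had been planned for. The annotation gave 21789 of 35556 probe sets 1 symbol, 1621 several, and 12146 were unnamed here. Of several probe sets the brightest was used, which left 19938 genes. For the probe sets a genome build is not given in the sources used here.

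The main comparison used limma 3.58.1 in R 4.3.3 (lmFit, then eBayes), fitted over all genes with genotype as the only term and Benjamini-Hochberg adjustment at 0.05. The study's thresholds were read from limma's p, as its own array test is not named. Single genes were also compared over all 35 splits of the arrays by a two-sided exact permutation test. The fit was tested on simulated data. The design text of the series counts 3 and 4 mice, matching the arrays, although no label ties an array to a mouse. The members and lists were chosen with earlier results of these data known. Described in full were Hox genes with an unadjusted p under 0.05 or without overlap and the 6 brightest, and other Hox genes were picked after their values were seen. From the TALE, MLL and Cdx, Polycomb, target and HSC marker lists, members with an unadjusted p under 0.05 were named. Where there were none, the 2 brightest were. Erythroid, neutrophil and stromal markers were given by count. A list of 5 measured lineage antigens is not described above. At that p 1 of them was higher (Cd3e) and 1 lower (Ly6g), against 4.4% and 3.08% of all genes. Hoxaas2 and the microRNA genes were named after their values were seen. The alternatives covered scaling, floors, probe set choice, weights, moderation, a pseudocount, a block and each array left out.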

Additional observations from a re-analysis of the deposited data

Results flagged for a closer look

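In 10 of the 37 Hox genes 1 of the 4 Cebpa Δ/Δ arrays stood apart from the other three by Dixon's test at its 95% critical value, which chance alone flags in about 1 of 20 groups. Exact ties between arrays make this ratio reach 1 for a small gap, as in Hoxb7, Hoxc9, Hoxc13 and Hoxd9, so the count was not set against that share. Cebpa Δ/Δ 3 stood apart in Hoxb1 (6.50, others 6.13), Hoxb6 (6.55, others 7.29 to 7.31) and Hoxb13 (4.83, others 4.48 to 4.52). Cebpa Δ/Δ 1 did in Hoxc8 (3.95, others 4.20 to 4.21), Hoxc9 (4.96, others 5.003), Hoxc13 (3.86, others 4.03) and Hoxd1 (4.46, others 4.61 to 4.62). Cebpa Δ/Δ 2 did in Hoxb7 (5.26, others 5.38) and Hoxc4 (3.91, others 4.00), and Cebpa Δ/Δ 4 in Hoxd9 (4.62, others 4.61). Of these genes Hoxb1 and Hoxb6 alone lay above the median gene level. Groups of 3 arrays were not tested in this way, so the high values of Hoxb2 in Cebpa fl/fl 1 and of Mir10a in Cebpa fl/fl 3 are given above as values.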

How the results depend on the processing

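The count of Hox genes at the thresholds of the study, 0 higher and 0 lower, and the count of 0 at an adjusted p under 0.05 held under all 19 alternatives. Hoxb4 was lower at an unadjusted p under 0.05 in each of them. Other Hox genes crossed that p in some: 1 was higher (Hoxa11) with array medians subtracted, with low values raised to the percentile 25, with trend and robust moderation or with no moderation, and 0 to 1 over the fits without 1 array. The number lower was 2 with the replicate block (Hoxa5, -0.51, and Hoxb4), in which Cebpa Δ/Δ 4 has no partner and drops out, and from 1 to 3 over the fits without 1 array, with Hoxa4 joining without Cebpa fl/fl 2 (-0.25) and Hoxa4 (-0.23) and Hoxa5 (-0.51) without Cebpa Δ/Δ 4. Without 1 array, from 1 to 5 Hox genes were lower without overlap, and without Cebpa fl/fl 1 and Cebpa Δ/Δ 3 together, a setting chosen after seeing the data, 4 were; fewer arrays overlap less by construction. Of 266 values for single brighter genes 255 kept direction and side of the threshold, 4 gained it and 7 turned: Hoxb2 without Cebpa fl/fl 1 (0.027) or without both arrays (0.014), Hoxa6 (0.12) and Hoxb5 (0.06) without Cebpa fl/fl 3, Hoxb5 (0.10) and Hoxb6 (0.011) without Cebpa Δ/Δ 3, and Hoxa10 (0.0084) without both. Part of the values that kept direction could not have turned. The floor at the percentile 25, genes above the median level only and both changes of moderation leave these estimates as they are. So do both changes of probe sets, as each Hox gene had 1. The block repeats the estimates of the fit without Cebpa Δ/Δ 4. Without 1 array the log2 fold changes ranged from -0.68 to 0.027 for Hoxb2, from -0.42 to 0.12 for Hoxa6, from -0.31 to 0.10 for Hoxb5 and from -0.33 to 0.011 for Hoxb6. The cause was not tested. The median of all Hox genes ranged from -0.18 to -0.01, the first with genes above the median level only (14 Hox genes tested) and the second with array medians subtracted, which raised the median of all genes by 0.04 and left 21 of 37 Hox genes negative instead of 25. That of the brighter ones ranged from -0.30 to -0.09.

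The labels do not say that replicate numbers shared by the genotypes pair the arrays. The correlations of the deviations of arrays with the same number were -0.02, 0.10 and -0.18. Arrays with different numbers were not compared in this way, so these values cannot exclude a pairing. The block is given here only. With it the median of the Hox genes was -0.09, the same as without Cebpa Δ/Δ 4, the array that the block removes.

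A change over 1.5-fold lay within the interval of 8 brighter Hox genes with these 7 arrays, and the dim signals of the other clusters can understate a change.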
